A study of Mus musculus with 24 samples.

Results

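The genes described here are 40 cell cycle genes, 16 that work in DNA replication (the Mcm genes, Pcna, Rrm1, Rrm2, Tyms, Tk1, Lig1, Fen1, Cdc6, Rfc3 and Rfc4) and 24 that work in mitosis or its control. Each was read from the probe sets annotated with its symbol alone, and where a gene had several, the probe set with the highest mean log2 intensity over 24 arrays stood for it. 39 of the 40 were measured among 12393 genes of the array, 16 replication genes and 23 mitosis genes. Ccnb1, which encodes cyclin B1, had no probe set with its symbol alone and is described here only by its promoter.

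The RNA came from the frozen lungs of 24 female BALB/C mice, 8 to 10 weeks old, with 1 array per mouse and 8 groups of 3. Doses were given into the nose on days 0 and 13, and the lungs were taken 18 hours after the later one. The groups received saline, 20 ug of ovalbumin (OVA, an egg protein used as a model allergen), 150 ug of diesel exhaust particles labelled N-DEP, A-DEP or C-DEP (NDEP, ADEP and CDEP below), or 1 of those particles together with OVA. The labels call the 4 groups given OVA sensitized and the other 4 not. The labels call the 3 samples of a group biological replicates. The comparisons asked whether each particle moved these genes, without OVA (against saline) and with it (against OVA alone), and whether OVA or the kind of particle made a difference.

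A cell that commits to division first loads the Mcm helicase onto its replication origins with the help of Cdc6 and Cdt1, then copies its DNA with a sliding clamp (Pcna), clamp loaders (the Rfc proteins) and enzymes that supply deoxynucleotides, and later builds the spindle and divides. Most genes of the replication stage are switched on by E2F factors late in G1. Most genes of mitosis are switched on in G2 by factors that bind the CHR element and neighbouring CCAAT boxes. The adult lung is a slowly renewing tissue, so transcripts of both stages are usually low in it.

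Promoters of some of the genes that rose in a comparison below are shown, with words like these elements marked. RefSeq's promoter table (GRCm38.p6, 250 bases before to 50 after each start site) held 36 of the 40 genes, and lacked Mcm4, Kif20a, Ccna2 and Aurkb. Each stretch runs 5′ to 3′ along the gene and ends before the start site of that table. For Cdc6, Mcm5, Top2a and Mki67 this site lies inside the span that RefSeq gives for the gene, and so does the whole Cdc6 stretch. Capitals mark matches on either strand to E2F-type words (TTTCGCGC, TTTGGCGC, TTTCCCGC or TTTGCCGC), CHR-type words (TTTGAA or TTCGAA) or CCAAT, and a match is a description of letters, not a shown binding site. For replication the stretches are those of Mcm5, Mcm6, Cdc6, Mcm2 and Pcna, and for mitosis those of Cdk1, Top2a and Mki67. Mcm3, Rfc3 and Rrm1, which also rose and held upstream matches, are not shown. Upstream of the start Mcm3 and Rrm1 had CCAAT boxes alone, and the E2F-type words of Mcm3 lay after it. Rfc3 had an E2F-type word, a CHR-type word and a CCAAT box upstream.
Mcm5 (chr8:75109344-75109503, plus strand): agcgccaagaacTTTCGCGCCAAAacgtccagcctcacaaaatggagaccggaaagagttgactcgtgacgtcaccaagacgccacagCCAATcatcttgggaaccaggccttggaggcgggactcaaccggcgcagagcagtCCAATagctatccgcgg
Mcm6 (chr1:128359706-128359827, minus strand): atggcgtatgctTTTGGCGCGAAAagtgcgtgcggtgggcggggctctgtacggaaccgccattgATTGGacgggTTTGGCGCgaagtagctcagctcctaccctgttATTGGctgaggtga
Cdc6 (chr11:98908001-98908032, plus strand): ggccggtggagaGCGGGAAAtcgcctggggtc
Mcm2 (chr6:88898833-88898967, minus strand): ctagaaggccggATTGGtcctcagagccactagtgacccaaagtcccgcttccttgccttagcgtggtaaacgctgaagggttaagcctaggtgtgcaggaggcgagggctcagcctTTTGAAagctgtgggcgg
Pcna (chr2:132253251-132253279, minus strand): accacgggtacgATTGGtccttgaggaga
Cdk1 (chr10:69352913-69353132, minus strand): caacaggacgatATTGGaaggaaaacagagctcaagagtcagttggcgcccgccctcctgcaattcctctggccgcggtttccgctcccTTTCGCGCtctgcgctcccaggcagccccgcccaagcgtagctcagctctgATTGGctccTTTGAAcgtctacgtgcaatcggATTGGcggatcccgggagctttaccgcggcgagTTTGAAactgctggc
Top2a (chr11:99024195-99024428, minus strand): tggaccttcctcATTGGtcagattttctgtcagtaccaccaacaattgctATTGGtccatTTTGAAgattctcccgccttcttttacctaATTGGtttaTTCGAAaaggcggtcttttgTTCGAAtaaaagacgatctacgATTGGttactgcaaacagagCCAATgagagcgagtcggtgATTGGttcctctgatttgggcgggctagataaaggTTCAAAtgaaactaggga
Mki67 (chr7:135716460-135716579, minus strand): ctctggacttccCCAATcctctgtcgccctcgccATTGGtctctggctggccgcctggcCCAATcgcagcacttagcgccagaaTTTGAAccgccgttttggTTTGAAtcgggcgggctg

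Mcm5 had 2 E2F-type matches that overlap on opposite strands, and Mcm6 had 3 upstream of its start, 2 of them overlapping. Mcm2 had a CHR-type word and a CCAAT box in its window, but none of the E2F-type words searched, and Pcna had only a CCAAT box. Cdk1 was the 1 mitosis gene with an E2F-type match, beside 2 CHR-type words and 3 CCAAT boxes. Over the genes in the table, an E2F-type word lay in 7 of 15 replication genes (46.7%: Mcm3, Mcm5, Mcm6, Mcm7, Lig1, Cdc6 and Rfc3), in 1 of 21 mitosis genes (4.76%) and in 2.60% of all 27025 genes. A CHR-type word lay in 4 of 15 replication genes (26.7%), in 16 of 21 mitosis genes (76.2%) and in 21.7% of all genes. CCAAT lay in 9 of 15 replication genes, in 17 of 21 mitosis genes (81.0%) and in 41.1% of all genes.

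**Figure D1:**
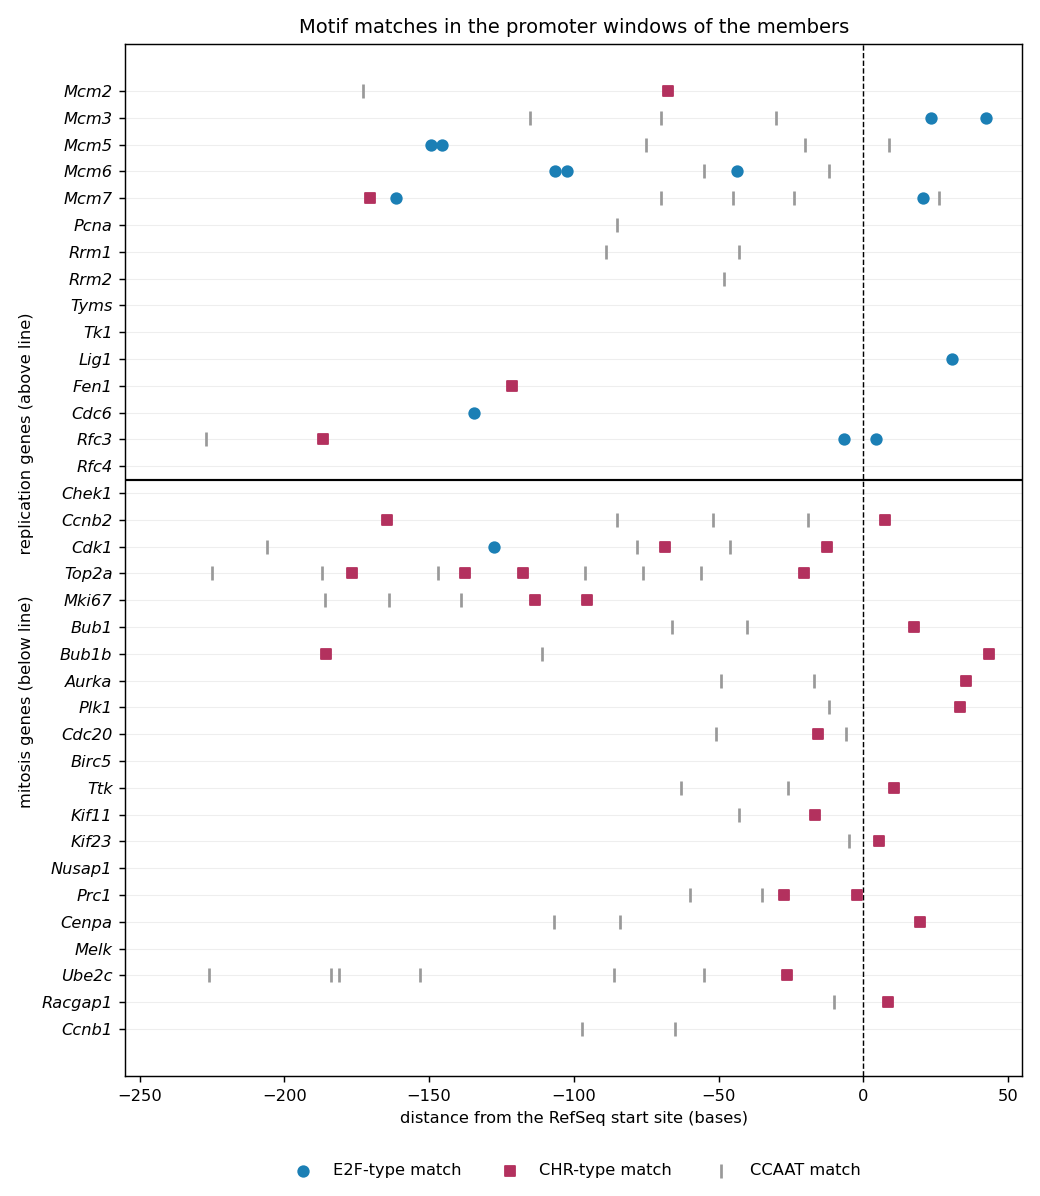
Positions of matches to E2F-type (circles), CHR-type (squares) and CCAAT (ticks) words in the promoter windows of 36 genes, as distance in bases from the RefSeq start site (dashed line). Circles stand beside 7 replication genes and 1 mitosis gene, while squares stand beside 16 mitosis genes and 4 replication genes.

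The replication genes gave the brighter signals of the 2 sets. Their median level was 6.65 log2 intensity, close to the 6.68 of all genes, and that of the mitosis genes was 5.09. Levels are array signals, so they are not compared between single genes. A gene was called dim in a group where its mean lay below the 25th percentile of each of the group's arrays, which ran from 4.45 to 4.65 log2 over the 24 arrays. Tyms, Cdc6 and Rfc4 among the replication genes and Bub1, Aurkb, Ttk, Kif20a and Melk among the mitosis genes were dim in all 8 groups, so no signal above background was shown for them and their changes are of uncertain size. 13 replication genes and 15 mitosis genes were dim in no group.

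The arrays carried the marks of whole lung. Sftpc, a surfactant protein of alveolar type 2 cells, lay between 13.35 and 13.87 log2, and Scgb1a1, a secretory protein of airway club cells, between 13.79 and 14.15. Rag1, a recombinase of developing lymphocytes in which division is frequent, was above the 25th percentile on 0 of 24 arrays, while Ptcra, a receptor gene of developing T cells, was above it on 19, at a median of 4.61 log2. Array medians were 72.2 to 75.5 intensity units. Because whole lung was sampled, more cells of a dividing type and more RNA per cell cannot be told apart in any value below.

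Given without OVA, each particle raised 3 or 4 of the 16 replication genes, and Mcm genes led each list. Tests were limma's moderated tests over all 12393 genes, adjusted by Benjamini-Hochberg within each comparison at an adjusted p of 0.05, and a log2 fold change is followed by its SE. Against saline, 3 of 39 genes rose after NDEP, 5 after ADEP and 4 after CDEP, and 0 fell. The shares of all genes that rose in these comparisons were 2.25%, 1.16% and 2.28%, and those that fell 0.452%, 0.492% and 1.76%. The median log2 fold change of the 16 replication genes was 0.27, 0.42 and 0.31 after NDEP, ADEP and CDEP, that of the 23 mitosis genes 0.04, 0.09 and 0.13, and that of all genes 0.00, -0.01 and -0.02. The 3 comparisons share the same saline arrays.

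Mcm2, a subunit of the helicase that unwinds DNA at the replication fork, was read at 5.98, 6.23 and 6.02 log2 in the 3 saline mice. It was 6.47, 6.62 and 6.98 after NDEP, 7.10, 6.69 and 6.95 after ADEP and 7.13, 6.81 and 6.98 after CDEP. No particle-treated array fell to the level of any saline array. The rises were 0.61 ± 0.17 (adjusted p = 0.0496), 0.83 ± 0.17 (adjusted p = 0.0129) and 0.89 ± 0.17 (adjusted p = 0.0047, a 1.86-fold level, 3 mice against 3). A second probe set of Mcm2, with a mean of 6.39 log2 against 6.55 for the one used, gave 0.14, 0.24 and 0.21 and did not pass in any of the 3 (adjusted p = 0.525, 0.252 and 0.242 in a fit of all probe sets, in which the one used gave 0.0595 after NDEP).

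Mcm5, another subunit of the same helicase ring and measured by 1 probe set, was also lowest in saline among the groups without OVA. Its saline arrays read 5.32, 5.72 and 5.34 log2, and the NDEP arrays 6.03, 6.08 and 6.17. ADEP arrays read 6.39, 5.96 and 6.03 and CDEP arrays 6.09, 5.91 and 6.42. All 9 particle-treated arrays lay above all 3 saline arrays, and the rises were 0.64 ± 0.15, 0.67 ± 0.15 and 0.68 ± 0.15 (adjusted p = 0.0177, 0.0217 and 0.0132).

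The other helicase subunits gave fewer calls. Mcm3 was 6.32, 6.53 and 6.36 in saline and 6.94, 7.15 and 7.10 after CDEP, with no overlap, and rose by 0.66 ± 0.15 (adjusted p = 0.0165). Mcm4 was 7.53, 7.21 and 7.49 in saline and 8.15, 7.86 and 7.92 after ADEP, again with no overlap, and rose by 0.57 ± 0.13 (adjusted p = 0.0302). After the other particles the differences of Mcm3 were 0.41 and 0.42 and those of Mcm4 0.32 and 0.42, none past the test. A second probe set of Mcm4, with a mean of 5.06 log2 against 7.77 for the one used, gave 0.43 after ADEP. It did not pass (adjusted p = 0.323 in a fit of all probe sets). Another probe set of Mcm3, with a mean of 6.59 log2 against 6.75 for the one used, did pass after ADEP (0.67, adjusted p = 0.0181) and CDEP (0.61, adjusted p = 0.0165) in a fit of all probe sets, but not after NDEP (0.46, adjusted p = 0.0872). The remaining Mcm3 probe sets passed after no particle. After NDEP, ADEP and CDEP, one with a mean of 6.51 log2 gave 0.28, 0.26 and 0.21. One with a mean of 6.01 gave 0.41, 0.38 and 0.47, and the dimmest gave -0.08, -0.07 and -0.09. Mcm6 differed from saline by 0.47, 0.63 and 0.51 after NDEP, ADEP and CDEP, and Mcm7 by 0.21, 0.46 and 0.32, none past the test. Another probe set of Mcm7, with a mean of 6.88 log2, did pass for all 3 particles, at 0.41, 0.57 and 0.54 (adjusted p = 0.0350, 0.00847 and 0.00680 in a fit of all probe sets), while 2 further ones did not, at 0.32, 0.34 and 0.43 and at -0.31, 0.10 and -0.11.

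Behind the helicase, single genes passed for single particles. Pcna, the clamp that holds the polymerase on DNA, was 9.85, 10.10 and 9.89 log2 in saline and 10.41, 10.31 and 10.55 after CDEP, with no overlap, a rise of 0.48 ± 0.11 (adjusted p = 0.0199). Rfc3, a part of the clamp loader, was 5.24, 5.24 and 5.06 in saline and 5.74, 5.67 and 5.58 after ADEP, a rise of 0.49 ± 0.11 (adjusted p = 0.021). Rrm1, the large subunit of ribonucleotide reductase, was 6.72, 6.99 and 6.90 in saline and 7.45, 7.14 and 7.41 after NDEP, a rise of 0.46 ± 0.12 (adjusted p = 0.0344). For these 3 genes the arrays of the groups compared did not overlap. A second probe set of Rrm1, with a mean of 6.81 log2, gave 0.33 after NDEP, and one of Rfc3, with a mean of 4.40, gave 0.11 after ADEP. Neither passed (adjusted p = 0.121 and 0.798 in a fit of all probe sets). Rrm2, the small subunit whose transcript follows S phase most closely, was higher by 0.05, 0.66 and 0.26, with 1 ADEP array at 6.60 and another at 5.53, and did not pass. After NDEP, ADEP and CDEP, another Rrm2 probe set gave 0.16, 0.25 and 0.33. A further, dimmer one gave 0.09, 0.32 and 0.27, none past the test.

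1 mitosis gene passed against saline. Cdk1, the kinase that drives entry into mitosis, was 6.03, 6.25 and 6.48 log2 in saline and 7.27, 6.62 and 6.84 after ADEP, with no overlap, and rose by 0.66 ± 0.16 (adjusted p = 0.0311). NDEP arrays read 6.35, 6.40 and 6.69 and CDEP arrays 6.48, 6.61 and 6.90, both overlapping the saline arrays, with differences of 0.23 and 0.41. The largest negative difference among the members was that of Kif11, a spindle motor, after NDEP (-0.41 ± 0.13, adjusted p = 0.0837). Kif11 was dim in every group but saline.

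Most of these calls were lost when single arrays were left out. Without saline replicate 1 the counts of 3, 5 and 4 became 0, 0 and 1, and without saline replicate 3 they became 0, 3 and 2. Without NDEP replicate 3, ADEP replicate 1, ADEP replicate 3 or CDEP replicate 3 the count of that particle became 0, 0, 0 and 1, while the call of Mcm2 after CDEP was kept with each of its 6 arrays left out (0.81 to 0.97). That call was lost with RNA quality covariates (0.73, adjusted p = 0.172), as were the other calls after CDEP and all 3 after NDEP. The call of Mcm2 after NDEP was kept under 2 of 10 other settings. Single calls were also lost without Saline replicate 2 (Mcm4 and Cdk1 after ADEP), NDEP replicate 1 (Rrm1), NDEP replicate 2 (Mcm2), CDEP replicate 1 (Pcna) or CDEP replicate 2 (Mcm3).

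**Figure D2:**
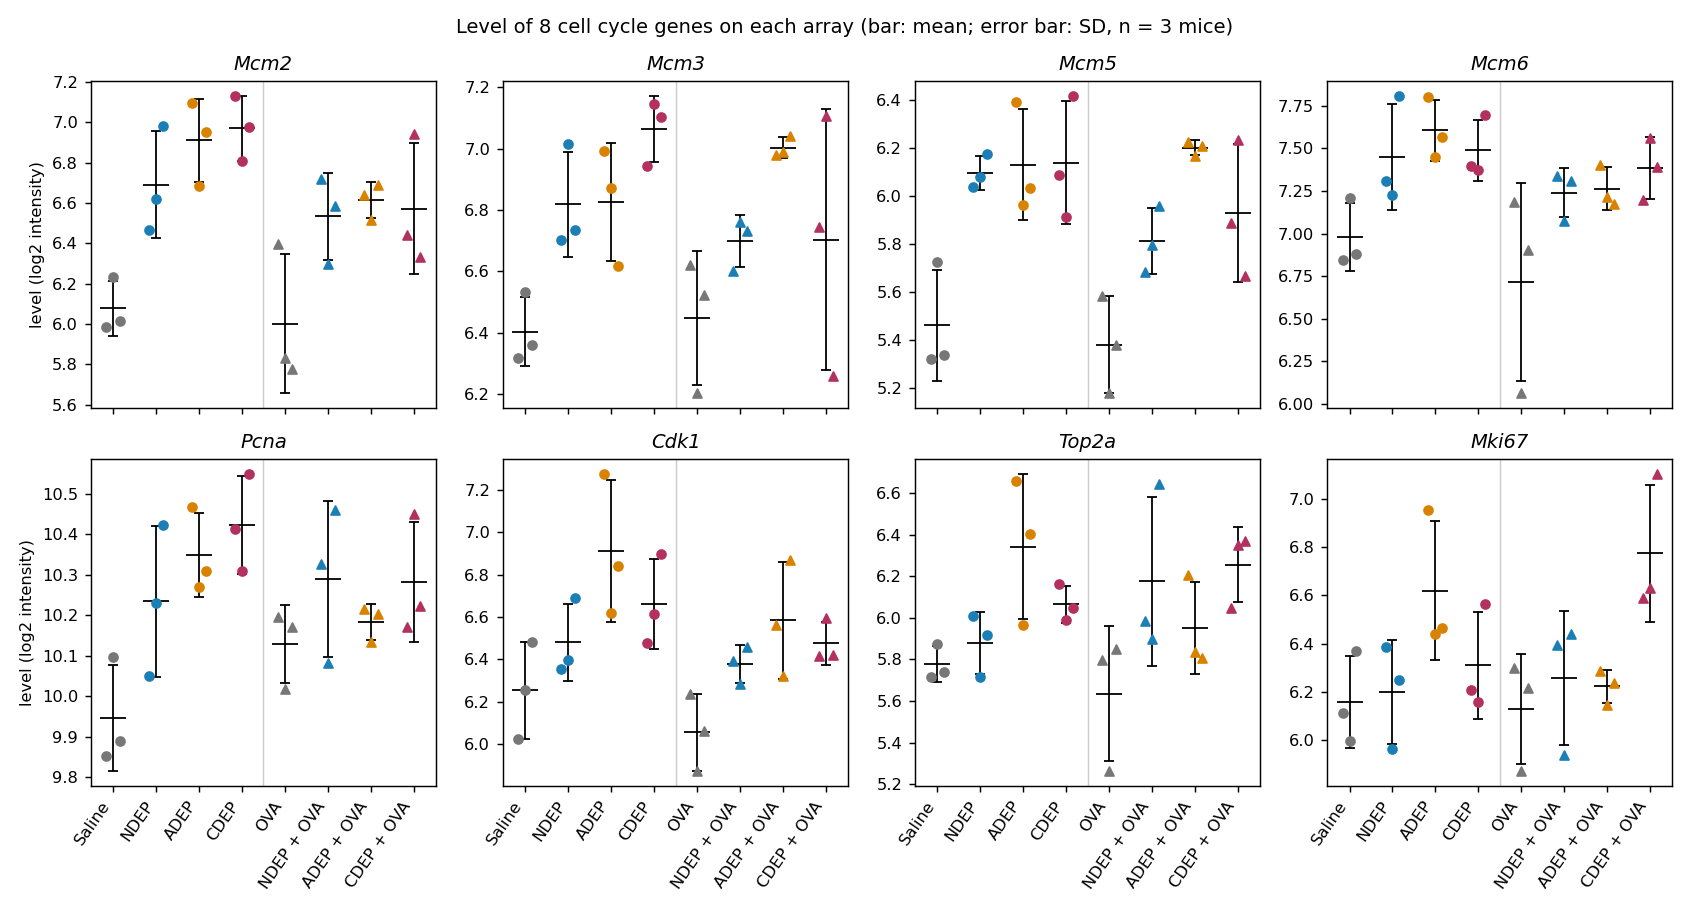
Levels in log2 intensity of Mcm2, Mcm3, Mcm5, Mcm6, Pcna, Cdk1, Top2a and Mki67 on each array, by group (circles without OVA, triangles with OVA; bar, mean; error bar, SD, n = 3 mice). The saline and OVA groups lie lowest in Mcm2 and Mcm5, where all 9 arrays of particles without OVA lie above all 3 saline arrays.

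Given together with OVA, the particles were set against OVA alone. Against OVA alone, 0 of 39 genes rose after NDEP + OVA, 1 after ADEP + OVA and 4 after CDEP + OVA, and 0 fell. The shares of all genes that rose were 1.74%, 0.629% and 3.62%, and those that fell 0.331%, 0.0565% and 1.17%. At an unadjusted p under 0.05, 5 of 39 genes stood apart after NDEP + OVA in limma's test, against 11.6% of all genes. The median log2 fold change of the replication genes was 0.12, 0.17 and 0.21, that of the mitosis genes 0.09, 0.09 and 0.08, and that of all genes 0.02, 0.03 and -0.01. These comparisons share the same OVA arrays.

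Mcm5 was the member that rose with OVA after both ADEP and CDEP. Its OVA arrays read 5.58, 5.18 and 5.38 log2 and its ADEP + OVA arrays 6.23, 6.17 and 6.21. CDEP + OVA arrays read 5.89, 6.23 and 5.66 and NDEP + OVA arrays 5.68, 5.79 and 5.96. None of the 9 overlapped the OVA arrays, and the rises were 0.82 ± 0.15 with ADEP (adjusted p = 0.00632) and 0.55 ± 0.15 with CDEP (adjusted p = 0.0315). The difference with NDEP was 0.43 ± 0.15 and did not pass (adjusted p = 0.163).

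Mcm2 was spread more widely with OVA. Its OVA arrays read 6.40, 5.83 and 5.78, its NDEP + OVA arrays 6.72, 6.30 and 6.59, its ADEP + OVA arrays 6.64, 6.51 and 6.69 and its CDEP + OVA arrays 6.44, 6.94 and 6.33. 1 OVA array lay at 6.40, inside the range of the NDEP + OVA and CDEP + OVA arrays. The differences of 0.53, 0.61 and 0.57 did not pass (adjusted p = 0.114, 0.106 and 0.0516).

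2 genes of mitosis passed with CDEP + OVA. Mki67, which coats mitotic chromosomes and is the common marker of cycling cells, was 6.30, 5.87 and 6.22 log2 with OVA and 6.59, 6.63 and 7.10 with CDEP + OVA, a rise of 0.64 ± 0.17 (adjusted p = 0.0244). Top2a, a topoisomerase that untangles chromosomes before they part, was 5.80, 5.26 and 5.85 and 6.05, 6.35 and 6.37, a rise of 0.62 ± 0.18 (adjusted p = 0.0465). In neither gene did the 2 groups overlap. With NDEP + OVA, Top2a read 5.99, 5.90 and 6.64 and differed by 0.54 ± 0.18 (adjusted p = 0.146). Among replication genes, Mcm6 also rose with CDEP + OVA, from 7.18, 6.06 and 6.90 to 7.20, 7.56 and 7.39 (0.67 ± 0.20, adjusted p = 0.0474), where OVA replicate 2 lay far below its group. Rrm2 had the largest difference, 0.72 ± 0.22, with arrays at 5.46, 4.80 and 5.78 and 5.97, 6.12 and 6.10, and did not pass (adjusted p = 0.067).

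OVA replicate 2 bore on these counts. Without it, 0 genes passed for ADEP + OVA and 0 for CDEP + OVA, and Mcm6 differed by 0.34 and Top2a by 0.43 with CDEP. Without CDEP + OVA replicate 2 the CDEP count was also 0, and without OVA replicate 1 the NDEP and ADEP counts became 2 and 2. Single calls with CDEP + OVA were also lost without OVA replicate 1 (Top2a), OVA replicate 3 or CDEP + OVA replicate 1 (Mcm5 and Mcm6 in both cases), or CDEP + OVA replicate 3 (Mcm6, Top2a and Mki67). With RNA quality covariates the calls of Mcm6, Top2a and Mki67 with CDEP + OVA were lost. Over 10 other settings, these covariates included, Mcm6 kept its call under 3 and Top2a under 4. Mcm5 kept its call under 8 and Mki67 under 9. A second, dim probe set of Top2a gave 0.03 with CDEP + OVA, and a second probe set of Mcm6, whose mean was 3.64 log2, gave 0.41.

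**Figure D3:**
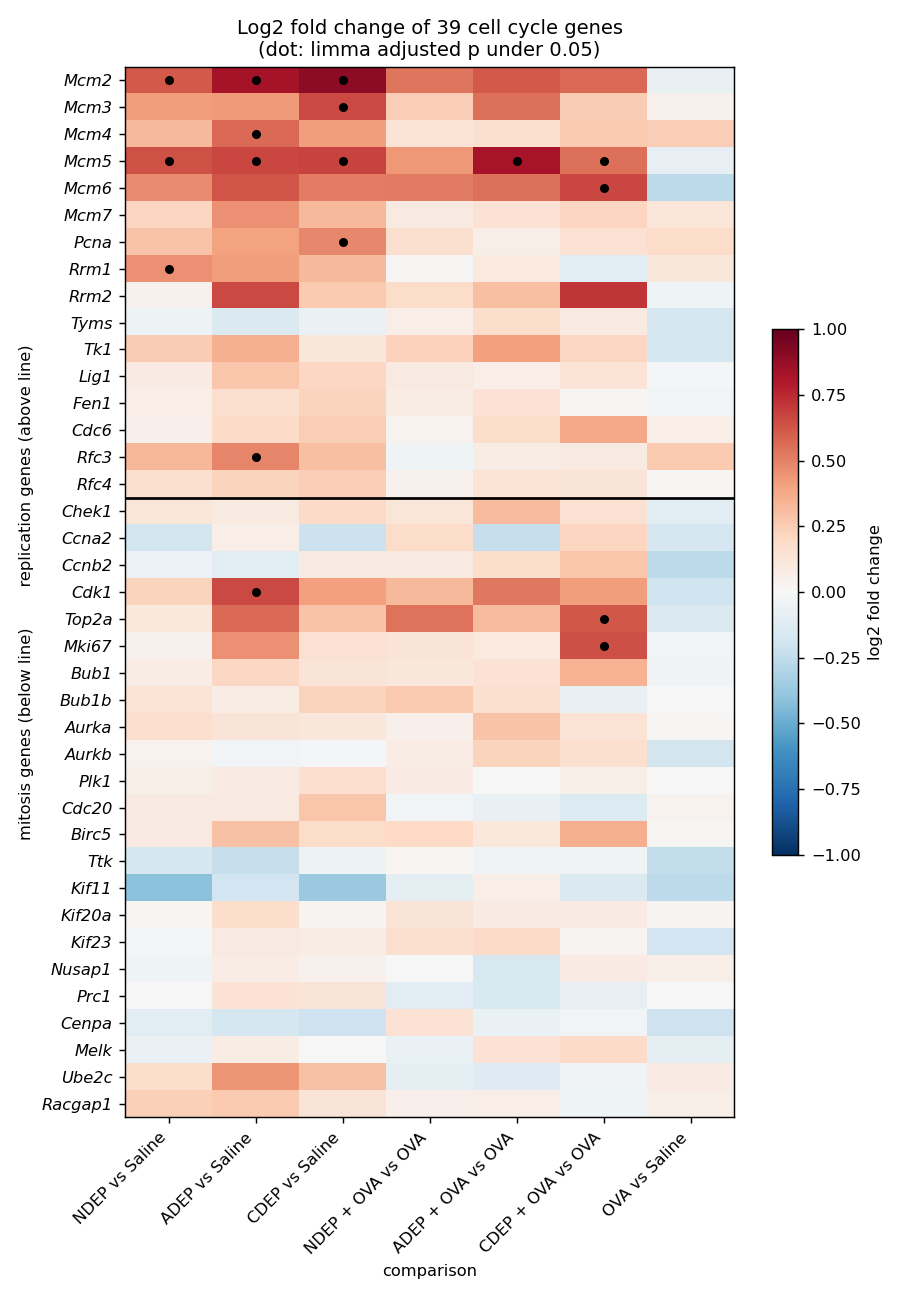
Log2 fold change (colour scale) of 39 cell cycle genes in 7 comparisons, 3 mice against 3 in each; a dot marks an adjusted p under 0.05 in limma. Dots lie mostly in the Mcm rows, and the column of OVA against saline has 0.

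Taking each particle over both backgrounds compared 6 mice with 6 and gave narrower errors. These averaged comparisons use the same arrays as above and share the 6 control arrays among the particles, so they are not further evidence. 3 genes rose after NDEP, 7 after ADEP and 11 after CDEP, and 0 fell, where 4.70%, 2.43% and 5.86% of all genes rose and 1.44%, 0.597% and 3.19% fell. For NDEP the genes were Mcm5 (0.53 ± 0.11, adjusted p = 0.00192), Mcm2 (0.57 ± 0.12) and Mcm6 (0.50 ± 0.14). For ADEP they were Mcm5 (0.75 ± 0.11, adjusted p = 0.000149), Mcm2, Mcm6, Cdk1, Mcm3, Mcm4 and Rfc3, the last 6 between 0.28 and 0.72. For CDEP they were Mcm2 (0.73 ± 0.12, adjusted p = 0.000311), Mcm5, Mcm6, Mcm3, Top2a, Cdk1, Mki67, Mcm4, Pcna, Cdc6 and Birc5, the last 10 between 0.27 and 0.61.

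2 of these genes lay near the floor of the array. Cdc6, which loads the helicase, was dim in all groups, at 3.88, 3.90 and 4.07 log2 with OVA and 4.17, 4.45 and 4.36 with CDEP + OVA, and its averaged rise after CDEP was 0.31 ± 0.09 (adjusted p = 0.0207). Birc5, or survivin, part of the complex that guides chromosome attachment, was 4.53, 4.35 and 4.42 in saline, 4.62, 4.76 and 4.47 with CDEP, 4.55, 4.39 and 4.39 with OVA and 4.65, 4.85 and 4.91 with CDEP + OVA, and rose by 0.27 ± 0.08 (adjusted p = 0.0216). It was dim in saline, NDEP and OVA lungs.

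The averaged calls of Mcm2 and Mcm5 were kept after all 3 particles with each of the 12 arrays left out, as were those of Mcm3 and Cdk1 after ADEP and of Mcm3, Mcm6 and Pcna after CDEP. The other averaged calls were each lost without at least 1 array. That of Rfc3 after ADEP was kept in only 2 of its 12 such fits and under 6 of 10 other settings. Without OVA replicate 2 the counts of 7 after ADEP and 11 after CDEP became 4 and 5, without ADEP replicate 1 the ADEP count became 4, and without CDEP + OVA replicate 2 the CDEP count became 6. The NDEP count became 2 without 6 of its 12 arrays (OVA replicate 2, NDEP + OVA replicates 1 and 3, Saline replicates 1 and 3, and NDEP replicate 3) and 5 without NDEP replicate 1. The second Mcm2 probe set differed by 0.10, 0.17 and 0.17 in the averaged comparisons (adjusted p = 0.49, 0.254 and 0.144 in a fit of all probe sets), so the size of the Mcm2 rise depends on the probe set. For Mcm3, 2 other probe sets gave 0.33 to 0.47, a further one 0.17 to 0.27, and its dimmest -0.15 to -0.03.

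The members that did not pass include other parts of the replication machinery. Lig1, the ligase that seals Okazaki fragments, read 6.56, 6.73 and 6.77 log2 in saline and stood 0.08, 0.28 and 0.21 above it after NDEP, ADEP and CDEP. Fen1, the nuclease that trims those fragments, stood 0.07, 0.16 and 0.23 above saline by its brighter probe set, while its other probe set passed with CDEP + OVA (0.67) and in the averaged comparisons after NDEP (0.40) and CDEP (0.55). Tk1, the thymidine kinase of the salvage pathway, stood 0.26, 0.35 and 0.12 above saline. Tyms, thymidylate synthase, was dim on every group mean (3.58 to 3.75 log2), and Rfc4 likewise (4.03 to 4.28). Neither these 5 nor Mcm7 or Rrm2 passed in any of the 9 comparisons of a particle with its control, separate or averaged, by the probe set used.

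Among the mitosis genes, 19 of 23 passed in none of the 9. They comprised the checkpoint kinases Chek1, Bub1, Bub1b and Ttk, the mitotic kinases Aurka, Aurkb and Plk1, the cyclins Ccna2 and Ccnb2, the anaphase-promoting factors Cdc20 and Ube2c, the motors Kif11, Kif20a and Kif23, the spindle and cytokinesis proteins Nusap1, Prc1 and Racgap1, the centromeric histone Cenpa, and Melk. Their differences ran from -0.41 (Kif11 after NDEP) to 0.44 (Ube2c after ADEP). Ccna2, cyclin A2, was 5.72, 5.87 and 5.68 log2 in saline and 6.03, 5.32 and 6.11 after ADEP, a spread wider than the difference of 0.07. Plk1, a kinase needed for spindle assembly, had group means within 5.22 to 5.40. 26 of the 39 members passed in none of the 9 comparisons.

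The sign of the differences was shared more widely than the calls. 21 members were higher in all 6 comparisons with the matched control, 13 of 16 replication genes and 8 of 23 mitosis genes, against 13.3% of all genes. The mean of the 6 differences had a median of 0.25 over the replication genes (0.01 to 0.67), 0.09 over the mitosis genes (-0.19 to 0.43) and 0.00 over all genes. Over the members dim in no group, the medians were 0.26 and 0.09. The lower signals of the mitosis genes stand beside this: the 4 mitosis genes that passed anywhere had mean levels of 4.59 (Birc5), 6.01 (Top2a), 6.33 (Mki67) and 6.48 (Cdk1), and the part of signal level in the contrast between the sets was not tested. Kif23, dim in no group and with a mean of 6.60, had a mean difference of 0.09, and Cdc20, with a mean of 5.87, one of 0.04. Those of Cdk1 and Top2a were 0.43 and 0.41. The replication genes Fen1 and Lig1, with means of 8.76 and 6.79, had mean differences of 0.11 and 0.14.

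**Figure D4:**
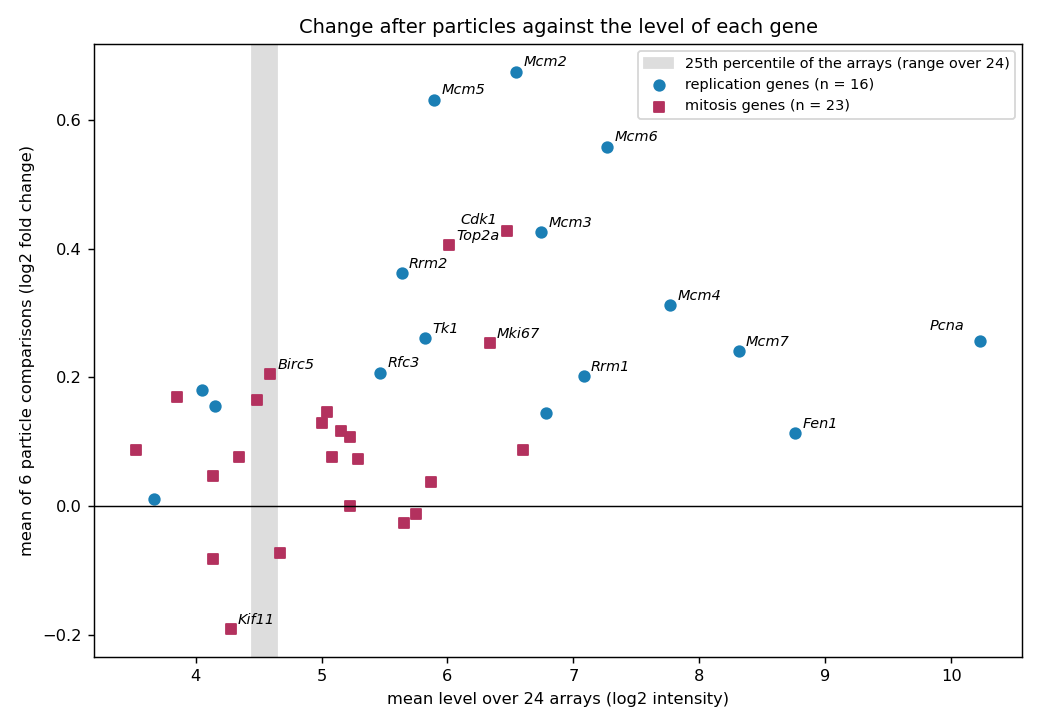
Mean of the 6 particle comparisons (log2 fold change) against the mean level over 24 arrays (log2 intensity) for 16 replication genes (circles) and 23 mitosis genes (squares); the grey band spans the 25th percentiles of the arrays. Mcm2, Mcm5 and Mcm6 stand highest, above 0.5, while most squares lie between 0 and 0.2.

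Within groups the replication genes also varied together. After subtracting each group's mean, the median Pearson correlation over the 24 arrays was 0.38 for the 120 pairs of replication genes, 0.23 for the 253 pairs of mitosis genes and 0.20 between the sets, against 0.02 over all gene pairs. These correlations are a description, since the arrays share their normalization and the genes are not independent. Among members dim in no group they were 0.47, 0.25 and 0.17.

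No member passed the test after OVA alone. Against saline, 0 of 39 genes passed, as did 0 of 12393 genes (0.00% higher and 0.00% lower), and at an unadjusted p under 0.05 in limma 3 members stood apart, against 6.60% of all genes. They were Rfc3 (0.26 ± 0.11, adjusted p = 0.688), whose OVA arrays read 5.47, 5.34 and 5.50 log2 above all saline arrays, Cenpa (-0.21 ± 0.09, adjusted p = 0.716) and Kif11 (-0.26 ± 0.13, adjusted p = 0.74). Cenpa, the histone that marks centromeres, read 4.97, 4.81 and 4.70 in saline and 4.67, 4.63 and 4.56 with OVA. The median log2 fold change was 0.00 for replication genes and -0.04 for mitosis genes. For Mcm5 the difference was -0.08 ± 0.15 with a 95% interval of -0.39 to 0.23, and for Mki67 -0.03 ± 0.17 with -0.38 to 0.32.

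Adding OVA to a particle did not move a member past the test either. With NDEP, ADEP and CDEP as the background, 0 of 39 genes rose or fell (0.113%, 0.0484% and 1.92% of all genes rose, and 0.161%, 0.0161% and 1.66% fell), and 1, 6 and 8 members had an unadjusted p under 0.05 in limma, against 9.64%, 9.95% and 21.4% of all genes. The smallest p-values were those of Rrm1 with NDEP (-0.33 ± 0.12, adjusted p = 0.324), Ube2c with ADEP (-0.49 ± 0.17, adjusted p = 0.343) and Cdc20 with CDEP (-0.37 ± 0.12, adjusted p = 0.0763). Rrm1 read 7.45, 7.14 and 7.41 log2 with NDEP and 6.91, 6.93 and 7.15 with NDEP + OVA. Cdc20, the activator of the anaphase-promoting complex, read 6.14, 6.06 and 6.09 with CDEP and 5.61, 5.90 and 5.66 with CDEP + OVA, without overlap. Averaged over the 4 backgrounds, 0 of 39 members passed (0.912% of all genes rose and 1.56% fell), 9 had an unadjusted p under 0.05 against 15.4% of all genes, and the smallest p-values belonged to Rrm1 (-0.18 ± 0.06), Mcm2 (-0.23 ± 0.08) and Cdk1 (-0.20 ± 0.08), with adjusted p = 0.112, 0.168 and 0.197.

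The rises with and without OVA were not shown to differ. In the test of the difference itself, the particle by OVA interaction, 0 of 39 members passed for NDEP, ADEP or CDEP (0.0242%, 0.00807% and 0.258% of all genes higher, 0.00%, 0.0161% and 0.113% lower), and 2, 5 and 3 had an unadjusted p under 0.05 in limma against 6.16%, 10.4% and 12.7% of all genes. Rrm1 had the smallest p for NDEP (-0.45 ± 0.17, adjusted p = 0.7) and for CDEP (-0.43 ± 0.17, adjusted p = 0.286), and Rfc3 for ADEP (-0.41 ± 0.15, adjusted p = 0.355). For Mcm5 the interaction with CDEP was -0.13 ± 0.21 with a 95% interval of -0.56 to 0.31. For Mki67 it was 0.49 ± 0.24 with 0.00 to 0.98 (adjusted p = 0.386).

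The 3 particles, which the series title calls chemically distinct, were given at the same dose and time, and 6 pairs were compared. 0 of 39 members passed in any pair. Without OVA, 0.00% of all genes were higher in each of the 3 pairs, and 0.00807% (ADEP against NDEP), 0.00% and 0.00% lower. With OVA, 0.00%, 0.00807% and 0.815% were higher and 0.0161%, 0.00% and 0.613% lower for ADEP against NDEP, CDEP against NDEP and CDEP against ADEP. At an unadjusted p under 0.05 in limma, 4, 0 and 0 members stood apart without OVA (4.56%, 5.92% and 6.68% of all genes) and 4, 5 and 4 with it (10.8%, 7.33% and 21.2%).

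By the probe sets used, the widest gap without OVA was that of Rrm2 between ADEP and NDEP (0.62 ± 0.22, 95% interval 0.15 to 1.08, adjusted p = 0.999). Mki67 was higher with CDEP + OVA than with ADEP + OVA, whose arrays read 6.29, 6.15 and 6.24 log2, by 0.55 ± 0.17 (95% interval 0.20 to 0.90, adjusted p = 0.0862). The groups did not overlap, and the difference did not pass. Mcm5 differed between CDEP and ADEP without OVA by 0.01 ± 0.15 with a 95% interval of -0.30 to 0.32, and Mcm2 by 0.06 ± 0.17 with -0.29 to 0.41.

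Other genes of the same pathways were counted in the same way. For these and the marker lists below, the shares of all genes that rose were 2.25%, 1.16% and 2.28% against saline. Against OVA they were 1.74%, 0.629% and 3.62%. The shares that fell were 0.452%, 0.492% and 1.76% against saline and 0.331%, 0.0565% and 1.17% against OVA. Of 36 measured other replication genes (42 listed), 1, 1 and 2 rose against saline after NDEP, ADEP and CDEP, 0, 0 and 2 rose against OVA with the 3 particles, and 0 fell in these 6 comparisons. Cdt1, which loads the helicase together with Cdc6, rose against saline after ADEP (0.77 ± 0.16, adjusted p = 0.0128) and CDEP (0.62 ± 0.16, adjusted p = 0.0260), and against OVA with CDEP + OVA (0.69 ± 0.16, adjusted p = 0.00845). Prim2, a primase subunit, rose against saline after NDEP (0.40) and CDEP (0.38), and Dbf4, which activates the kinase that fires origins, against OVA with CDEP + OVA (0.56). Dbf4 also passed for the OVA effect averaged over the 4 backgrounds (0.26, adjusted p = 0.0461 in limma). In the averaged comparison of ADEP, Cdt1, Pole2, Pold1 (polymerase subunits) and Uhrf1, which maintains DNA methylation at the fork, rose by 0.35 to 0.59. Averaged over both backgrounds, Cdt1 also rose after NDEP (0.51, adjusted p = 0.00449) and CDEP (0.66, adjusted p = 0.000367), and Pole2 after CDEP (0.37).

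Of 43 measured other mitosis genes (48 listed), 0, 2 and 0 rose and 1, 0 and 0 fell against saline after NDEP, ADEP and CDEP, and 0, 0 and 3 rose against OVA. Cks1b, a small partner of the cyclin-dependent kinases, rose after ADEP (0.70 ± 0.18, adjusted p = 0.0473) and with CDEP + OVA (0.82 ± 0.18, adjusted p = 0.00747). Its relative Cks2 rose after ADEP (0.61), and Smc2, a condensin subunit, and Trip13, a checkpoint ATPase, with CDEP + OVA (0.69 and 0.40). Ncaph, another condensin subunit, fell after NDEP (-0.51 ± 0.11, adjusted p = 0.0116). Averaged over both backgrounds, Cks1b rose after NDEP, ADEP and CDEP (0.45, 0.50 and 0.59). Cks2, Trip13 and Lmnb1 of this list also rose after ADEP (0.45, 0.32 and 0.31), and Smc2 after CDEP (0.48). Stmn1, of the same list, fell after NDEP (-0.22).

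Of the 24 measured genes of the G1 cyclins, kinases and E2F factors (28 listed), 0 passed in the 6 separate comparisons. In the averaged ones 1, 2 and 1 rose after NDEP, ADEP and CDEP. Of all genes, 4.70%, 2.43% and 5.86% rose in these averaged comparisons and 1.44%, 0.597% and 3.19% fell. Myc, a growth-promoting transcription factor, rose by 0.29, 0.26 and 0.32 after NDEP, ADEP and CDEP, and Ccnd1, cyclin D1, by 0.31 after ADEP. Of 18 measured cell cycle inhibitors and p53 targets (20 listed), 1, 1 and 1 rose and 0, 2 and 1 fell in the averaged comparisons. Gadd45g, a stress-induced growth arrest gene, rose by 0.84, 0.67 and 0.96, while Sesn1, a p53 target, differed by -0.36 after ADEP and -0.30 after CDEP, and Cdkn1c, an inhibitor of cyclin-dependent kinases, by -0.45 after ADEP, all 3 past the test. Gadd45g also rose against OVA with NDEP + OVA (1.01) and CDEP + OVA (1.25). Its OVA effect averaged over the 4 backgrounds passed too (0.41, adjusted p = 0.0444 in limma).

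Markers of inflammatory cells moved in the same comparisons. Of 10 measured neutrophil markers (12 listed), 6, 4 and 6 rose against saline after NDEP, ADEP and CDEP and 3, 3 and 3 against OVA, and of 10 measured monocyte and recruited macrophage markers (12 listed), 7, 1 and 3 and 3, 0 and 2, with 0 falling in either list. The mean level of the neutrophil list ran from 5.81 to 6.27 log2 over saline arrays, from 6.59 to 7.01 over the arrays of the 3 particles without OVA, from 5.83 to 6.23 with OVA and from 6.39 to 6.99 with particles and OVA. For the monocyte list these ranges were 7.79 to 7.86, 8.08 to 8.64, 7.75 to 7.96 and 8.05 to 8.58. The replication genes themselves averaged 6.25 to 6.35, 6.46 to 6.89, 6.12 to 6.39 and 6.37 to 6.72, and the mitosis genes 4.95 to 5.10, 4.93 to 5.30, 4.92 to 5.0 and 4.95 to 5.18. In each of the first 3 lists all particle arrays lay above the saline arrays. All arrays of particles with OVA lay above the OVA arrays in the neutrophil and monocyte lists, but not in the replication list. There the lowest NDEP + OVA array was at 6.37 and the highest OVA array at 6.39. The median rise of monocyte markers against saline was 0.86, 0.39 and 0.47 after NDEP, ADEP and CDEP, in comparisons that share the same saline arrays. The part of arriving cells in the changes of the members was not tested.

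Few lymphocyte markers passed the test. Of 10 measured T cell markers, 0 passed in the 6 comparisons, and of 9 B cell markers 1, 0 and 1 rose against saline and 1, 0 and 1 against OVA. The germinal centre list had 3 measured genes, of which 2 were dim in all groups. Of 9 measured alveolar type 2 markers, cells that divide to repair the alveolus, 4, 2 and 3 rose against saline and 0 against OVA, with a mean level of 10.86 to 11.42 log2 in saline and 11.44 to 11.77 after particles. Of 9 measured alveolar macrophage markers 0, 0 and 0 rose against saline and 4, 0 and 3 against OVA, and of 9 measured dendritic cell markers 3, 0 and 1 and 4, 3 and 4. Of 6 measured thymus and lymph node markers 1 rose in each of the 6 comparisons, the chemokine gene Cxcl13 (1.49 to 1.90), and the list's mean level was 4.78 to 5.01 log2 in saline and 5.05 to 5.30 after particles. Heart muscle markers, of which 9 were measured, fell in 1, 0 and 1 cases against saline and in 3, 0 and 8 against OVA. The part of any of these in the members' changes was not tested.

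**Figure D5:**
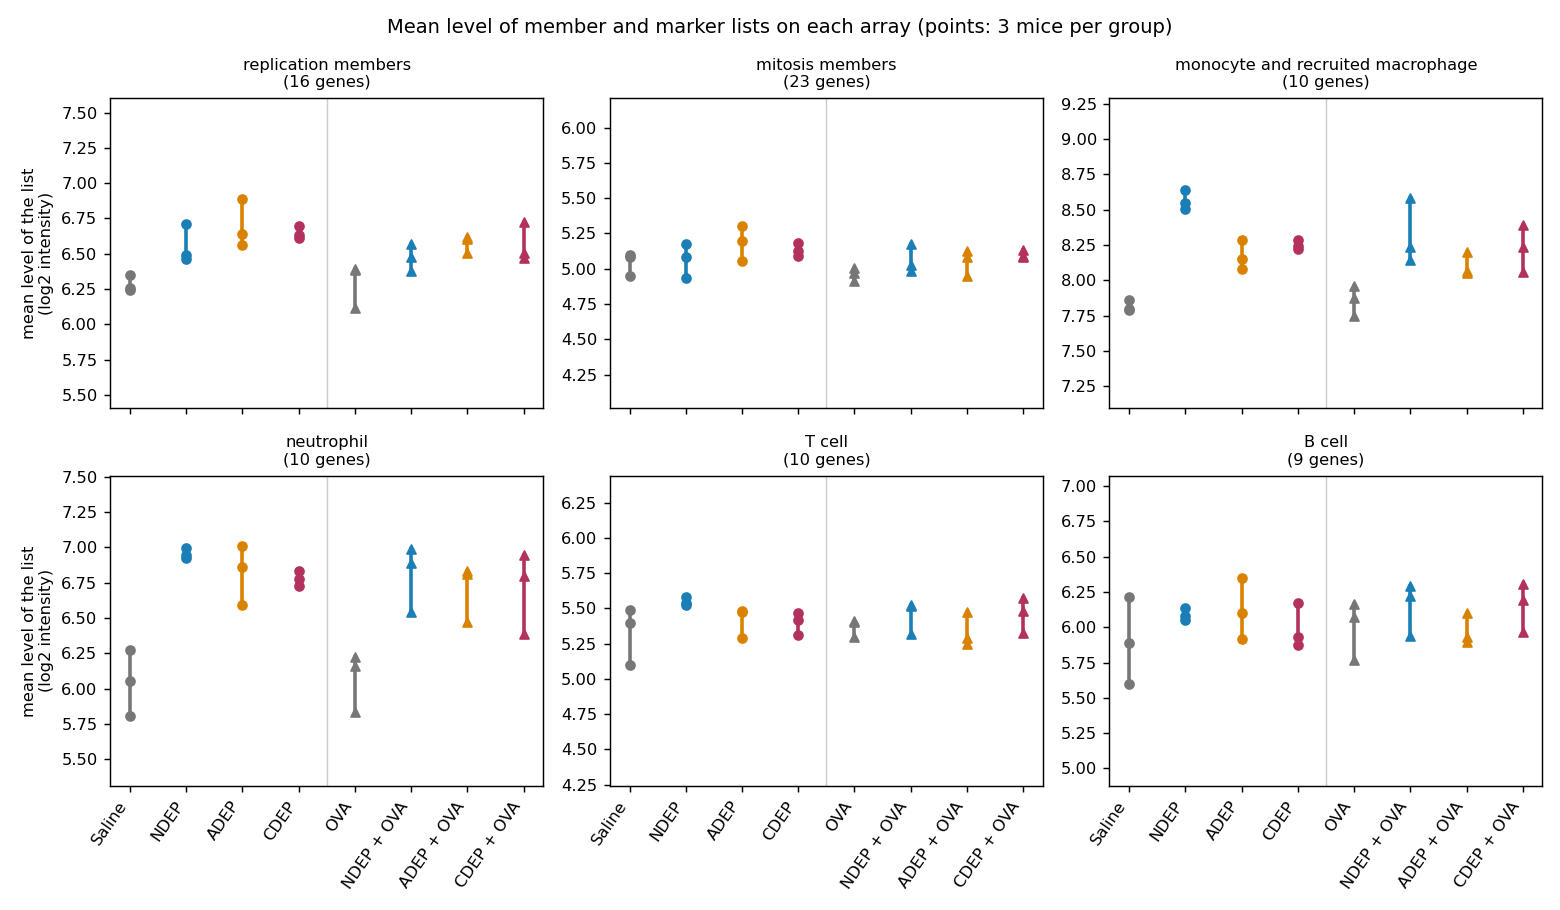
Mean level (log2 intensity) of the 16 replication genes, the 23 mitosis genes and 4 marker lists on each array, by group (points, 3 mice per group; line, range). The replication genes, the monocyte list and the neutrophil list lie higher after particles than in saline, while the B cell list overlaps saline in every particle group without OVA and the T cell list does so after ADEP and CDEP but not after NDEP.

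Measures of RNA quality did not overlap between the groups in 2 of these comparisons. The log2 ratio of 3′ to 5′ control probe sets, which rises as RNA degrades, averaged 0.06 ± 0.06 (SD, n = 3) for Gapdh after CDEP and 0.36 ± 0.29 in saline, and 0.66 ± 0.03 and 1.01 ± 0.20 for Actb (exact two-sided permutation p = 0.1 for each, the smallest that 3 against 3 allows). For NDEP + OVA the Actb ratio was 1.01 ± 0.07 against 0.82 ± 0.09 with OVA (exact two-sided permutation p = 0.1, n = 3 in each), a gap in the other direction. With both ratios as covariates 0 members passed against saline after NDEP and 0 after CDEP, and 7 after ADEP. Mcm6, Top2a and Mki67 did not pass with CDEP + OVA against OVA under these covariates. In the averaged comparisons Mcm2 and Mcm5 passed with these covariates for all 3 particles. The part of RNA quality in the rises was not tested further.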

How the data were processed

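Lung RNA of 24 mice was labelled with biotin from 2 ug of total RNA and measured on 1-colour Affymetrix arrays, per the labels' protocols. Each probe set has a deposited intensity, which per the submitters' processing notes came from RMA; no version or settings of it were known. These deposited values ran from 5.98 to 18195.5, a linear scale, so log2 was taken before the fit. RMA brings arrays to 1 distribution and shrinks differences at low signal.

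Of 22690 probe sets, 20380 carried 1 gene symbol in the platform annotation, 691 several and 1555 none, and 64 were controls. Only the first kind was used, 1 per gene by the highest mean, which left 12393 genes; the identifiers of 12369 were in the RefSeq gene table. No 2 arrays were copies (highest correlation 0.996).

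limma 3.58.1 (R 4.3.3) fitted 8 group means to all 24 arrays (16 residual and 8.16 prior degrees of freedom), with eBayes without trend, two-sided tests and 23 comparisons, each adjusted over 12393 genes. Python 3.11.15, numpy 2.4.6, pandas 2.3.3, scipy 1.17.1 and matplotlib 3.10.9 did the rest, and the fit was tested on simulated data. The number of arrays limits the precision.

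The members, the lists and the tests were chosen with earlier results of these data known. Named with values on every array were up to 6 members per comparison past the threshold with the largest changes and no overlap, the 3 with the smallest p-values where none passed, and 12 members of set roles; other pathway genes were named by their smallest p-values, up to 4 per list. Alternatives were log2(intensity + 16), a filter on dim genes, the mean of a gene's probe sets, all probe sets, renewed quantile normalization, weights per array, a variance that is trended and robust, fits of just the groups compared, the replicate number as a block, RNA quality as covariates and leaving out each array.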

Additional observations from a re-analysis of the deposited data

How the results depend on the processing

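No member reversed its direction in any called comparison under the alternatives tried, and the counts of called members stayed within 1.5 times the values of the report except as follows. Array weights raised the count from 3 to 6 for NDEP against saline, from 5 to 13 for ADEP against saline, from 4 to 9 for CDEP against saline, from 1 to 3 for ADEP + OVA against OVA, from 3 to 7 for NDEP averaged, and from 0 to 1 for CDEP + OVA against CDEP and for the averaged OVA effect. With RNA quality covariates the counts were 0 for NDEP and 0 for CDEP against saline, 2 for ADEP + OVA and 2 for CDEP + OVA against OVA. With only the compared groups in the fit they were 1 for NDEP and 1 for ADEP against saline and 2 for CDEP + OVA against OVA. CDEP + OVA against OVA gave 1 with log2(intensity + 16), 2 with all probe sets and 2 with a trended robust variance, and NDEP against saline gave 1 after renewed quantile normalization. The mean of a gene's probe sets gave 3 for ADEP against saline and 4 for ADEP averaged. The cause was not tested.

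With 1 array left out, counts ran from 0 to 3, 0 to 7 and 1 to 4 for NDEP, ADEP and CDEP against saline, 0 to 2, 0 to 2 and 0 to 4 for the same particles with OVA against OVA, 2 to 5, 4 to 9 and 5 to 13 averaged, 0 to 1 for CDEP + OVA against CDEP and for OVA averaged, and were 0 elsewhere. The filter on dim genes kept 10382 genes and 31 members.

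The replicate numbers were not taken to pair the mice, since 27 of 84 pairs of same-numbered arrays correlated above 0.1 where all were required. Their deviations correlated at a median of 0.03 (-0.32 to 0.35; -0.01 for other numbers), and 14 of 24 arrays were closest to their own number, a hint from the data that some pairing may be present. With the replicate block the counts were 2 for NDEP against saline, 8 for ADEP averaged, 13 for CDEP averaged, 1 for CDEP + OVA against ADEP + OVA and 1 for CDEP + OVA against CDEP, and otherwise as in the report.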
